A study of Mus musculus with 12 samples.

Results

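*Ch25h* encodes cholesterol 25-hydroxylase. Of the other 9 genes described here, some make, break down or sense the oxysterols to which the product of this enzyme belongs. The others, *Abca1*, *Abcg1* and *Mylip*, are target genes of oxysterol receptors. The 10 genes (*Ch25h*, *Cyp27a1*, *Cyp7b1*, *Hsd3b7*, *Gpr183*, *Nr1h2*, *Nr1h3*, *Abca1*, *Abcg1* and *Mylip*) were taken by their symbols from the 22315 genes with a symbol on the array. They had 11 probes, because *Mylip* had 2, and 7 of the 10 genes gave a signal that could be tested. The set was chosen by measured values of these same arrays, namely the rise of *Ch25h* with Rspo2 plus Wnt3a over BSA. The values of *Ch25h* against BSA and against Wnt3a are therefore a description with no test.

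The cells were C57MG, a mouse mammary epithelial line, which was moved from medium with serum and insulin to plain medium and treated for 24 h. One group received recombinant human R-spondin2 (Rspo2, 100 ng/ml), another recombinant mouse Wnt3a (100 ng/ml), and another both proteins at these concentrations (Rspo2+Wnt3a). The control group received bovine serum albumin (BSA), the carrier of the proteins. Each group had 3 biological replicates of this 1 line, and the RNA of each was hybridized in a single color to its own array, 12 arrays in all. The level of a probe is log2 of its signal over the 75th percentile of its array, so 0 is that percentile and each step of 1 doubles the signal. Group levels are means ± SD (n = 3).

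Wnt proteins bind Frizzled and LRP5/6 receptors and stabilize β-catenin, and R-spondins strengthen this signal by keeping the receptors on the cell surface. Oxysterols are oxidized forms of cholesterol. They activate the liver X receptors (LXRs), nuclear receptors that switch on genes for cholesterol export and against cholesterol uptake, and they hold back SREBP2, the factor that drives cholesterol synthesis. In macrophages *Ch25h* is known as a gene induced by interferon, and its product is a precursor of an oxysterol that guides B cells.

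The 12 arrays correlated with each other at r = 0.977 to 0.996 over the tested probes, and between 51.3% and 64.2% of the probes on an array were well above background by the flag of the scanner software. They were spread over 3 slides: all BSA arrays shared slide 1 with 1 Rspo2 array, all Rspo2+Wnt3a arrays shared slide 3 with 1 Wnt3a array, and the remaining 2 Rspo2 and 2 Wnt3a arrays made up slide 2. BSA never shared a slide with Wnt3a or with Rspo2+Wnt3a, so slide and treatment cannot be fully told apart in those comparisons. Of the 8 epithelial markers looked up, *Krt8* and *Krt14* were well above background on 12 arrays and *Krt5* on 10. *Cldn4* was so on 4, *Krt18* on 3, *Krt19* and *Epcam* on 2 each and *Cdh1* on 0. Of 8 mesenchymal markers 7, collagens and *Vim* among them, were well above background on 12. The summed linear signal of the epithelial markers, in units of the 75th percentile, was 10.2 to 10.7 on the BSA arrays and 22.5 to 25.9 with Rspo2+Wnt3a. That of 8 macrophage and leukocyte markers ranged from 7.28 to 8.14 over the BSA arrays, from 8.65 to 9.56 over Rspo2, from 7.03 to 7.59 over Wnt3a and from 4.95 to 5.45 over Rspo2+Wnt3a. In that list *Mrc1* was well above background on 0 arrays, *Ptprc*, *Adgre1* and *Itgam* on 1 each, *Csf1r* on 11, and *Cd68*, *Lyz2* and *Cd14* on 12. The part of either list in the results that follow was not tested, and in RNA of whole monolayers fewer cells of a type and less RNA per cell cannot be told apart.

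*Ch25h* was close to the detection limit in BSA and Rspo2 and bright only in Rspo2+Wnt3a among the 4 groups. The scanner intensities of its probe, in arbitrary units, were 76.2, 78.5 and 58.7 with BSA, 46.3, 44.6 and 45.8 with Rspo2, 156, 153 and 141 with Wnt3a, and 1222, 1110 and 1363 with Rspo2+Wnt3a. The Wnt3a arrays lay above all BSA and Rspo2 arrays, the Rspo2+Wnt3a arrays lay above all others, and BSA and Rspo2 overlapped after scaling. The probe was well above background on 11 of 12 arrays, the exception being Rspo2 replicate 1.

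On the log2 scale the level of *Ch25h* was -3.90 ± 0.28 with BSA, -4.29 ± 0.18 with Rspo2, -2.46 ± 0.10 with Wnt3a and 0.32 ± 0.09 with Rspo2+Wnt3a. Rspo2 and BSA were thus neighbors whose values overlapped, and Wnt3a and Rspo2+Wnt3a stood apart from them and from each other by more than their spread. Described as folds, the level with Wnt3a was 2.73-fold that of BSA, and with both proteins 18.7-fold that of BSA and 6.85-fold that of Wnt3a. The change with both proteins exceeded the sum of the separate changes with Rspo2 and with Wnt3a by 3.16 on the log2 scale. The normexp background correction, run here with 50 units added to every signal, moved these values. It was run on each spot's local background and on the median background of the array. The log2 difference from BSA of *Ch25h* was then 2.96 and 3.34 with both proteins and 0.65 and 1.05 with Wnt3a, beside 4.22 and 1.45. The parts of the added units and of the background estimate in these shifts were not separated. By its rise with Rspo2+Wnt3a over BSA, *Ch25h* ranked 9 among the 22751 tested probes. The set was chosen by this same rise, so the rank only describes that choice and is no support for it.

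The difference between Wnt3a and Rspo2 uses no values of the BSA or Rspo2+Wnt3a arrays, although its error and p come from the fit of all 12 arrays. In this comparison *Ch25h* rose by 1.84 on the log2 scale (SE 0.14, 3.57-fold, adjusted p = 0.000263 by limma over all tested probes). Within slide 2, which held 2 arrays of each group, the difference was 1.78 and the arrays did not overlap. Calls required both an adjusted p under 0.05 and a difference of at least 2-fold, which 0.202% of all tested probes met in this comparison. Of the alternatives run, 3 ended this call: the 2 normexp background corrections, with differences of 0.20 and 0.98, and the per-probe test named in the study's methods once adjusted (adjusted p = 0.306). Among all tested probes they called 0, 5 and 0 in this comparison, in the same order. Both normexp corrections add 50 units to every signal. The difference of 0.20 came with a fitted background of -822 on Rspo2 replicate 2, 1 of the arrays compared.

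**Figure D1:**
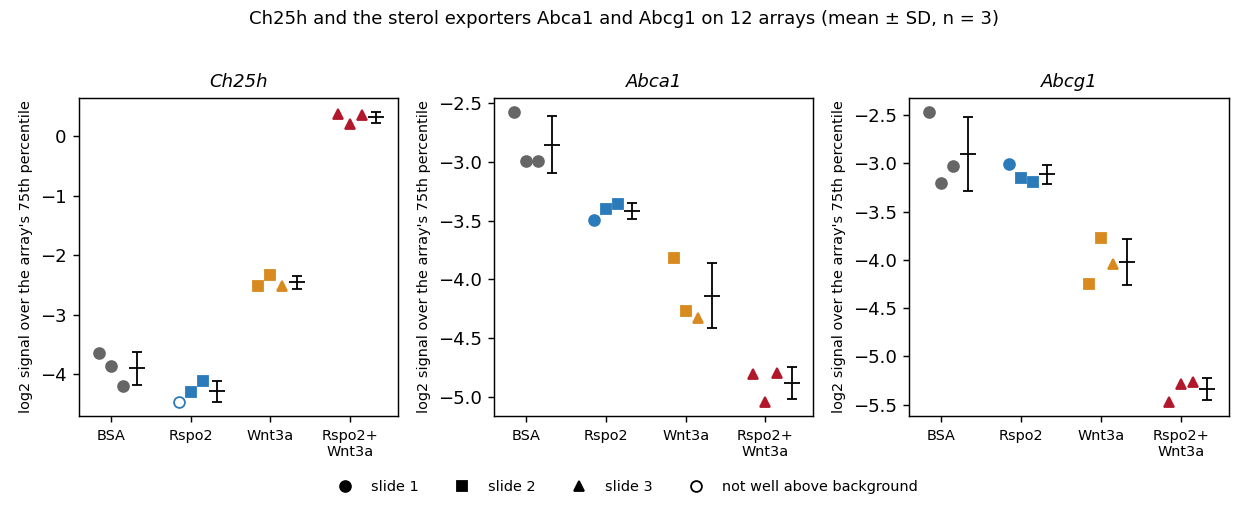
Level of *Ch25h*, *Abca1* and *Abcg1* on each of the 12 arrays, as log2 of the signal over the array's 75th percentile (each panel has its own vertical axis). Marker shapes give the slide, an open marker an array on which the probe was not well above background, and bars the mean ± SD of 3 arrays. *Ch25h* was highest and *Abca1* and *Abcg1* lowest on the Rspo2+Wnt3a arrays.

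*Ch25h* is a gene of the minus strand at chr19:34473783-34475148 (GRCm38.p6). The 250 bases before its RefSeq start, chr19:34475149-34475398, are shown because *Ch25h* carries the largest change among the 10 genes. They are written 5′ to 3′ on the gene's strand with the letters of a full cAMP response element (TGACGTCA) in capitals.

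Ch25h: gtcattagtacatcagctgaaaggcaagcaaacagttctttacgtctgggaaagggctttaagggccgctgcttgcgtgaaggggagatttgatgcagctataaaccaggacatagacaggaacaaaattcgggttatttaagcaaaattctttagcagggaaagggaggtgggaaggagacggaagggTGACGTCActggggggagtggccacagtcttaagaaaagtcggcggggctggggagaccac

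The element ends 53 bases before the start. It was looked for after the window had been read, and 1.55% of the 32841 promoter windows of the same length held it. The TCF core CTTTGA, searched on both strands like the other motifs, was not in this window and was in 13.8% of all windows. The interferon-stimulated response element GAAANNGAAA was not in it either and was in 2.98% of all. Of the 10 genes, 8 had a window in the RefSeq table (9 windows, because *Nr1h3* had 2), and none of the other windows held any of these 3 motifs. These are matches of letters and show no binding.

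The other enzymes of oxysterol making and breakdown gave either no signal or no called difference. *Cyp27a1*, the mitochondrial sterol 27-hydroxylase, and *Cyp7b1*, the 7α-hydroxylase that acts on 25- and 27-hydroxycholesterol, were well above background on 0 of 12 arrays. Their intensities were 3.11 to 11.6 and 3.14 to 9.67 units, so they were not tested and no fold is given. *Hsd3b7*, the dehydrogenase that acts on 7α-hydroxylated sterols, was by contrast well above background on 12 arrays, with intensities of 1564 to 2282. Its level was 0.94 ± 0.06 with BSA, 1.09 ± 0.03 with Rspo2, 0.99 ± 0.07 with Wnt3a and 0.86 ± 0.08 with Rspo2+Wnt3a. Against BSA the log2 differences were 0.15, 0.05 and -0.08, and none passed the test (adjusted p by limma 0.173, 0.648 and 0.437). The 95% interval of the last was -0.24 to 0.08, which lies well within 2-fold.

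Of 16 further genes of oxysterol and bile acid enzymes on the array, 8 gave a signal that could be tested, and with Rspo2+Wnt3a against BSA 0 rose and 2 fell, beside 5.08% of all tested probes called. The median difference of the 8 was -0.06, beside 0.04 for all tested probes. *Hsd11b1*, the reductase that reactivates glucocorticoids and also acts on 7-ketocholesterol, fell by 1.87 on the log2 scale (SE 0.12, adjusted p = 1.52e-06 by limma). Its level was -0.76 ± 0.04 with BSA, -0.03 ± 0.06 with Rspo2, -1.12 ± 0.16 with Wnt3a and -2.63 ± 0.23 with Rspo2+Wnt3a, so it was highest with Rspo2 alone and lowest with both proteins. *Acox2*, a peroxisomal oxidase of the bile acid side chain, fell by 1.58 (SE 0.09, adjusted p = 1.05e-06). With normexp on the median background 1 of the 8 genes was called. The summed signal of 5 adipocyte markers, 2 of them well above background on 0 arrays, was likewise highest with Rspo2 (0.765 to 0.880) and lowest with Rspo2+Wnt3a (0.384 to 0.465), beside 0.583 to 0.681 with BSA, and its part in the values of *Hsd11b1* was not tested.

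The receptors of oxysterols showed small differences or no signal. *Gpr183* (EBI2), the receptor by which B cells follow 7α,25-dihydroxycholesterol, was well above background on 0 of 12 arrays, with intensities of 4.85 to 21.8 units. *Nr1h2*, which encodes LXRβ, was the brightest of the 11 probes, with intensities of 2503 to 3593 units. Its level was 1.57 ± 0.10 with BSA, 1.77 ± 0.05 with Rspo2, 1.71 ± 0.07 with Wnt3a and 1.61 ± 0.04 with Rspo2+Wnt3a. None of its log2 differences from BSA (0.20, 0.14 and 0.05) passed the test (adjusted p by limma 0.0853, 0.179 and 0.673).

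*Nr1h3*, which encodes LXRα, was dim. It was well above background on 11 arrays, with intensities of 26.1 to 50.3 units. Its level was -4.61 ± 0.11 with BSA, -4.42 ± 0.23 with Rspo2, -4.77 ± 0.14 with Wnt3a and -5.04 ± 0.17 with Rspo2+Wnt3a. With both proteins it was lower than with BSA by 0.42 on the log2 scale, which had an adjusted p of 0.0266 by limma but did not reach 2-fold, and the BSA and Rspo2+Wnt3a arrays did not overlap. Among LXR partners and coregulators, 10 of 11 listed genes were tested and none was called with Rspo2+Wnt3a, beside 5.08% of all tested probes. The 2 largest differences from BSA were those of *Rxra*, which encodes the partner of the LXRs in their dimer (-0.59, adjusted p = 0.00561), and of the coactivator gene *Ncoa1* (-0.45, adjusted p = 0.000609). The median difference of these 10 genes was -0.09. Without the limit on fold, 2 of the 10 had an adjusted p under 0.05 by limma. In this comparison 39.2% of all tested probes had such a p.

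**Figure D2:**
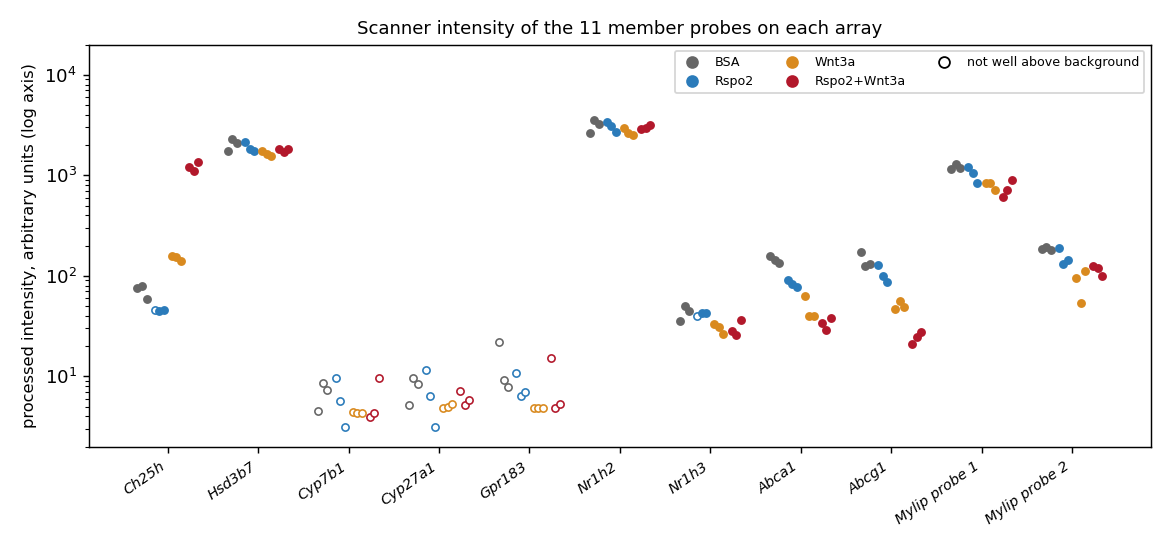
Scanner intensity (arbitrary units, log axis) of the 11 probes on each of the 12 arrays, colored by treatment, with open circles where the probe was not well above background. *Cyp7b1*, *Cyp27a1* and *Gpr183* stayed at or under 21.8 units with open circles on every array, and *Abca1*, *Abcg1* and *Nr1h3* lay between 21.2 and 172 units. Intensities of different probes do not compare amounts of RNA.

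The LXR target genes *Abca1* and *Abcg1* were lower with Wnt3a and with Rspo2+Wnt3a, where *Ch25h* was higher than with BSA. Both encode transporters that export cholesterol from the cell. Of the 7 probes of the 6 tested genes other than *Ch25h*, 2 were called with Wnt3a against BSA and 2 with Rspo2+Wnt3a against BSA, and in both comparisons these were the probes of *Abca1* and *Abcg1*, which fell. The shares called among all tested probes were 2.52% and 5.08%. With Rspo2 alone 0 of the 7 were called, beside 0.721% of all probes, and 2 of the 7 had an unadjusted p under 0.05 by limma. The share of all probes with such an unadjusted p was not counted. After adjustment 1 of the 7 was under 0.05, beside 16.8% of all probes.

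The levels of *Abca1* were -2.58, -2.99 and -3.00 on the BSA arrays, -3.49, -3.40 and -3.36 with Rspo2, -3.82, -4.26 and -4.33 with Wnt3a, and -4.81, -5.04 and -4.80 with Rspo2+Wnt3a. The 4 groups did not overlap and stood in this order from high to low. *Abca1* fell by 1.28 on the log2 scale with Wnt3a (SE 0.15, 2.44-fold lower, adjusted p = 0.000427 by limma), and it fell by 2.03 with both proteins (4.08-fold lower, adjusted p = 5.42e-06). With Rspo2 alone it was lower by 1.48-fold (adjusted p = 0.0336), which was under the 2-fold limit. The change with both proteins differed from the sum of the separate changes by -0.18 (95% interval -0.65 to 0.30, adjusted p = 0.614).

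*Abcg1* had levels of -2.47, -3.21 and -3.03 with BSA, -3.00, -3.15 and -3.19 with Rspo2, -4.25, -3.78 and -4.04 with Wnt3a, and -5.47, -5.28 and -5.26 with Rspo2+Wnt3a. BSA and Rspo2 overlapped, while Wnt3a lay below both and Rspo2+Wnt3a below Wnt3a. *Abcg1* fell by 1.12 with Wnt3a (SE 0.18, 2.17-fold lower, adjusted p = 0.00172 by limma) and it fell by 2.44 with both proteins (5.42-fold lower, adjusted p = 4.46e-06). The difference with Rspo2 alone was -0.21 (adjusted p = 0.422).

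The addition of Rspo2 to Wnt3a lowered *Abcg1* past the limits of a call but not *Abca1*, and the difference between the 2 genes was not tested. With Rspo2+Wnt3a against Wnt3a, *Abcg1* fell by 1.32 (2.49-fold lower, adjusted p = 0.00176 by limma) and was the 1 called among the 7 probes, beside 0.747% of all probes. *Abca1* was lower by 0.74 in the same comparison (adjusted p = 0.0199), under 2-fold. Within slide 3, where 3 Rspo2+Wnt3a arrays stood beside 1 Wnt3a array, the differences were -1.30 for *Abcg1* and -0.55 for *Abca1*. The interaction, the change with both proteins less the changes with each, was -1.11 for *Abcg1* (adjusted p = 0.0270), again the 1 called among the 7 probes, beside 1.93% of all probes. That call was lost when any of 7 of the 12 arrays was left out (adjusted p of 0.0545 to 0.0689), and also with slide as a term, with the replicate block and in 6 other settings. Between Wnt3a and Rspo2 none of the 7 probes was called by limma, beside 0.202% of all probes. An unadjusted p under 0.05 was reached by 4 of the 7, and the share of all probes with such a p was not counted. *Abcg1* (-0.91, adjusted p = 0.0343 by limma) and *Abca1* (-0.72, adjusted p = 0.0470) were lower with Wnt3a, by less than 2-fold. An adjusted p under 0.05 was reached by 1.47% of all tested probes in this comparison.

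The dim signals of *Abca1* and *Abcg1* set the limits of these folds. With Rspo2+Wnt3a their intensities were 29.1 to 38.0 and 21.2 to 27.6 units, although both probes were well above background on 12 arrays. The background correction moved the folds by over 1.5 times: with normexp on the median background of each array, which adds 50 units to every signal, the log2 differences with Rspo2+Wnt3a against BSA were -0.99 for *Abca1* (adjusted p = 1.51e-05) and -1.16 for *Abcg1* (adjusted p = 2.54e-05). The Wnt3a calls of both genes were lost when slide entered the fit (adjusted p = 0.0875 and 0.296, with differences of -1.30 and -0.95) and with arrays centred on their medians (differences of -0.96 and -0.79, under 2-fold). That of *Abcg1* was also lost with quantile normalization (-0.87) and without BSA replicate 1 (-0.90). The fall of *Abcg1* with Rspo2+Wnt3a against Wnt3a kept its size but not its call with slide as a term (-1.30, adjusted p = 0.0629).

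*Abca1* lies on the minus strand at chr4:53030789-53159988 (GRCm38.p6). LXRs bind direct repeats of AGGTCA spaced by 4 bases. Such a repeat with at most 2 mismatches was in 0 of the 9 windows, which belong to 8 of the 10 genes, and in 2.57% of all promoter windows. With 3 mismatches allowed, a limit widened after this result, 1 of the 9 windows held it, that of *Abca1*, as did 18.5% of all. The 30 bases around it, chr4:53159940-53159969, are shown because *Abca1* is the target gene with the clearest order of groups, with the repeat in capitals on the gene's strand. They lie inside the gene's span, upstream of the start of this transcript.

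Abca1: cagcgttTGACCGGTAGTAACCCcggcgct

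The repeat ends 51 bases before the start. It reads as the AGGTCA repeat on the opposite strand. No RefSeq window was available for *Abcg1* and *Cyp7b1*, so no motif was looked for there.

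*Mylip* (IDOL), an LXR target whose product marks the LDL receptor for degradation, was measured by 2 probes, both lower with Wnt3a and with both proteins than with BSA but unlike in which treatment passed the test. Probe 1 was bright (609 to 1301 units), with levels of 0.19 ± 0.08 with BSA, 0.20 ± 0.09 with Rspo2, -0.05 ± 0.15 with Wnt3a and -0.42 ± 0.20 with Rspo2+Wnt3a. Its difference with both proteins was -0.62 (adjusted p = 0.00192 by limma), under 2-fold, and its arrays lay below all BSA arrays. Probe 2 was dimmer (54.2 to 192 units), with levels of -2.51 ± 0.13, -2.56 ± 0.17, -3.31 ± 0.50 and -3.10 ± 0.26 in the same order. Its difference was -0.80 with Wnt3a (adjusted p = 0.0196) and -0.59 with both proteins (adjusted p = 0.0546). Without Wnt3a replicate 3 the former was -1.02 (adjusted p = 0.00669) and was called. Between Rspo2+Wnt3a and Wnt3a the probes differed in sign, at -0.37 for probe 1 (adjusted p = 0.109) and 0.21 for probe 2 (adjusted p = 0.671).

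**Figure D3:**
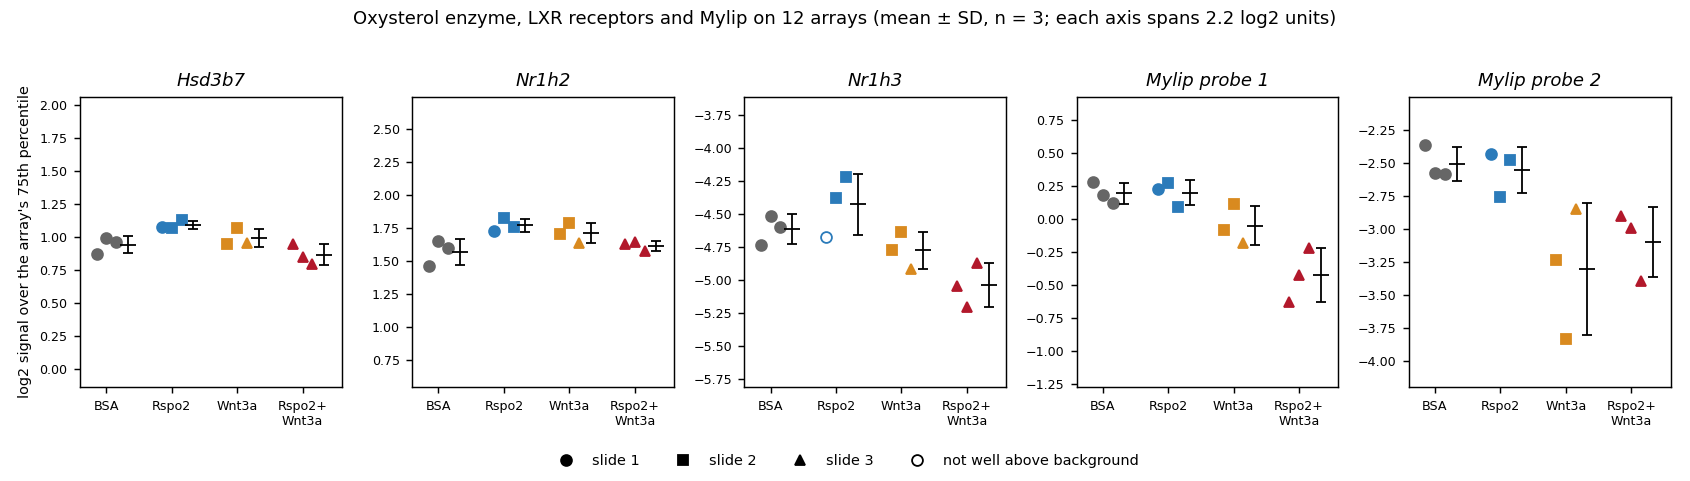
Level of *Hsd3b7*, *Nr1h2*, *Nr1h3* and the 2 *Mylip* probes on each of the 12 arrays, as log2 of the signal over the array's 75th percentile, with all panels on the same span. Marker shapes give the slide, an open marker an array on which the probe was not well above background, and bars the mean ± SD of 3 arrays. *Hsd3b7* and *Nr1h2* stayed within a narrow band, and both *Mylip* probes were lower with Rspo2+Wnt3a than with BSA on every array.

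**Figure D4:**
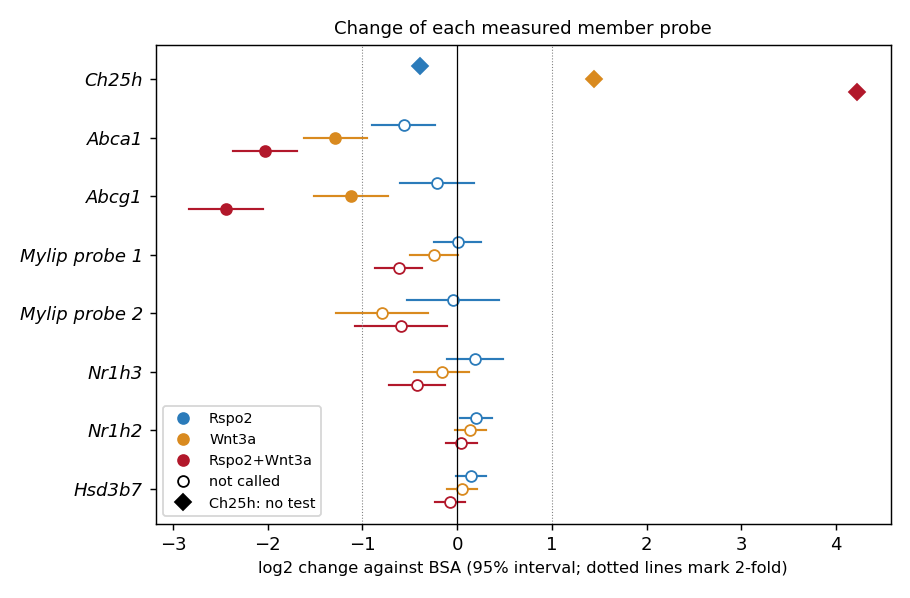
Log2 difference from BSA of each tested probe with Rspo2, Wnt3a or both, with 95% intervals from limma and filled circles where the probe was called. *Ch25h* is drawn as diamonds without intervals, since its difference chose it. *Abca1* and *Abcg1* lie to the left of the 2-fold line with Wnt3a and with both proteins, and no other probe is filled.

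Among other LXR target genes 1 was called, and it rose. Of 20 such genes, 12 were tested. With Rspo2+Wnt3a 1 rose, 0 fell and 11 were not called, beside 5.08% of all tested probes called. The median difference of the 12 was -0.12, and 4 were higher than with BSA. Of those not called, *Fasn*, fatty acid synthase (-0.78, adjusted p = 0.0126), *Srebf1*, the lipogenic factor SREBP1 (-0.68, adjusted p = 0.0138), and *Apoe*, apolipoprotein E (-0.39, adjusted p = 0.00201), were lower by less than 2-fold and are named after their values were seen. Without the limit on fold, 4 of the 12 had an adjusted p under 0.05 by limma, beside 39.2% of all tested probes. *Arl4c*, a small GTPase gene that LXRs are known to induce, rose by 1.29 on the log2 scale (SE 0.10, adjusted p = 5.85e-06 by limma), from a level of 2.59 ± 0.14 with BSA to 3.88 ± 0.09. Its levels with Rspo2 and Wnt3a lay between, at 2.94 ± 0.09 and 3.36 ± 0.12.

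Among genes that carry or answer to sterols in the cell none was called. Of 19 genes of sterol binding and transport proteins 17 were tested and none was called with Rspo2+Wnt3a, beside 5.08% of all tested probes. Their median difference from BSA was -0.25, and the largest were those of the oxysterol-binding protein family members *Osbpl10* (-0.69, adjusted p = 0.000125) and *Osbpl7* (-0.60, adjusted p = 0.00102), both under 2-fold. Of 16 SREBP2 targets and sterol regulators 15 were tested and none was called, with a median of -0.26. The largest differences were those of *Scap*, the escort of the SREBPs (-0.48, adjusted p = 0.0648), and *Lss*, lanosterol synthase (-0.44, adjusted p = 0.0154). In both lists 3 or fewer genes were higher than with BSA (2 of 17 and 3 of 15), while the median of all tested probes was 0.04. Without the limit on fold, 10 of the 17 and 9 of the 15 had an adjusted p under 0.05 by limma. The share of all tested probes with such a p was 39.2%.

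Genes of the interferon pathway, through which *Ch25h* is induced in macrophages, did not rise with it. Of 13 listed genes 11 were tested. With Rspo2+Wnt3a 0 rose and 3 fell, and the same count was called with Wnt3a alone, beside 5.08% and 2.52% of all tested probes. *Irf7*, a transcription factor of the interferon response, fell by 1.85 on the log2 scale with both proteins (SE 0.15, adjusted p = 9.64e-06 by limma). Its levels were -1.58 ± 0.04 with BSA, -2.08 ± 0.04 with Rspo2, -2.92 ± 0.17 with Wnt3a and -3.43 ± 0.35 with Rspo2+Wnt3a. *Irf9* and *Stat2*, which form the complex that carries the type I interferon signal to the nucleus, fell by 1.61 (adjusted p = 3.56e-07) and 1.45 (adjusted p = 2.30e-05). The median difference of the 11 genes was -0.27. The macrophage and leukocyte markers described above were also lowest with Rspo2+Wnt3a, and their part in these falls was not tested.

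**Figure D5:**
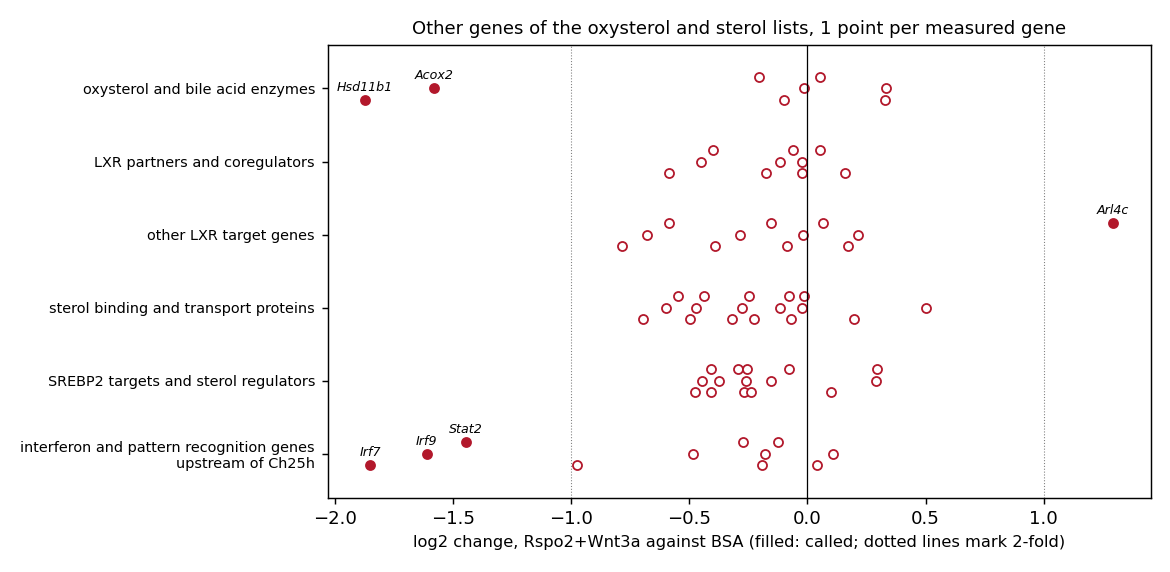
Log2 difference between Rspo2+Wnt3a and BSA of each tested gene of the 6 lists, with filled and named circles for called genes. The 6 called genes are *Hsd11b1*, *Acox2*, *Arl4c*, *Irf7*, *Irf9* and *Stat2*, of which *Arl4c* alone lies to the right of 0.

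The genes whose 3 differences from BSA were nearest to those of *Ch25h* were sought among 12125 genes well above background on 12 arrays. By root mean square distance on the log2 scale the nearest were *Rhou* (0.42), *Enpp2* (0.65), *Ppfibp2* (0.70), *Ahr* (0.85) and *Helt* (0.91). For *Rhou* the differences were -0.01 with Rspo2, 1.15 with Wnt3a and 3.68 with both proteins. For *Enpp2*, which encodes autotaxin, the enzyme that makes lysophosphatidic acid, they were -0.44, 0.94 and 3.21. *Ahr*, the aryl hydrocarbon receptor gene, had 0.04, 1.07 and 2.86. The 3 differences share their BSA arrays, and *Ch25h* itself was well above background on 11 of 12 arrays.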

How the data were processed

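Total RNA of 12 C57MG monolayers was measured on Agilent whole mouse genome arrays in a single color. The deposited scanner files, made by the authors with Agilent Feature Extraction 9.5.3.1, give an intensity for each spot after background subtraction, not scaled between arrays, the mean and local background intensity before it, and flags of quality. The authors also deposited a table of ratio values on a linear scale, each signal over the 75th percentile of its array, with 0.01 as the lowest value; it was used as an alternative. Samples were grouped by their titles, and all 12 were used.

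Spots with outlier flags (1327 of 520548 values) were left out, spots of 1 probe averaged, and the means converted to log2 less the 75th percentile of the array. For testing, a probe had to be flagged well above background by the 3 arrays of some group, which left 22751 of 41174 probes. The 4 groups were fitted together in R 4.3.3 by limma (version 3.58.1), and p-values were adjusted over all tested probes by the Benjamini-Hochberg method in each of 6 comparisons. An exact test on 3 and 3 arrays has 0.1 as its smallest p and was not used. The number of arrays limits the precision. Probes were named by accession through GRCm38.p6 (22951 probes) or by the files (11636 probes), and 34587 had a symbol.

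The 10 genes and the lists were chosen with earlier results of these data known. Named genes were the 10, from each list up to 4 called with Rspo2+Wnt3a or otherwise the 2 with the largest difference, and the 5 nearest to *Ch25h*. A listed gene was represented by its tested probe of highest mean signal. Promoter windows came from RefSeq (GRCm38.p6). Figures were drawn with matplotlib. The fit was tested on simulated data. In 31 alternatives the background correction, scaling, filter, threshold, test or table was exchanged, slide or replicate number entered the fit, or 1 array was left out.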

Additional observations from a re-analysis of the deposited data

Results flagged for a closer look

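The effect of Wnt3a on *Abcg1* with and without Rspo2 differed by the interaction term: it was -1.11 on the log2 scale by limma, with an adjusted p of 0.0270, and the Rspo2+Wnt3a arrays lay below all others in 3 of 3 replicates. This call was lost with the replicate block (adjusted p = 0.0635), with slide as a term (0.209), in 6 other settings and on leaving out any of 7 of the 12 arrays. The interaction of *Hsd11b1* was -2.24 (adjusted p = 0.000103 by limma), and its differences from BSA were 0.73 (Rspo2), -0.36 (Wnt3a) and -1.87 (Rspo2+Wnt3a). Groups of 3 arrays were too small to look for single outlying arrays.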

How the results depend on the processing

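Of the 31 alternatives 1, normexp on the median background of each array, was chosen after seeing the data. The differences of *Abca1* and *Abcg1* from BSA with Wnt3a and with both proteins stayed below 0 in each alternative that gave a value, and no within-slide value exists for them. Their calls with both proteins were lost with the planned normexp correction, and that of *Abca1* also with normexp on the median background. The planned correction was pulled by single spots of bright local background (fitted background of -822 on Rspo2 replicate 2 and -215 on BSA replicate 1, beside -10.5 to -2.29 on the other arrays). Signal over background limits all dim probes, and a change near background is uncertain. *Ch25h* and *Nr1h3*, not well above background on all 12 arrays, could not be tested under that stricter filter.

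Planned normexp called 0 member probes with Wnt3a, 0 with both against BSA, 0 with both against Wnt3a and 0 for the interaction. Among all 22751 tested probes it called 35, 330, 15 and 3 in the same order, beside 573, 1155, 170 and 438 without it. *Ch25h* then differed by 0.20 between Wnt3a and Rspo2. The signs turned for Rspo2 against BSA of *Abca1* (0.15), *Abcg1* (0.34), *Ch25h* (0.45) and *Mylip* probe 2 (0.36), for Wnt3a against Rspo2 of *Hsd3b7* (0.065) and *Nr1h2* (0.20), and for the interaction of *Mylip* probe 2 (-0.32). Normexp on the median background called 0 with Wnt3a, 1 with both against BSA, 0 with both against Wnt3a and 0 for the interaction. Among all tested probes it called 81, 415, 56 and 139 in the same order. *Ch25h* then differed by 0.98 between Wnt3a and Rspo2, and signs turned for Rspo2 against BSA of *Ch25h* (0.067) and *Mylip* probe 2 (0.027), for Wnt3a against Rspo2 of *Nr1h2* (0.011) and *Nr1h3* (0.0031), and for Wnt3a against BSA of *Nr1h3* (0.10). The methods' Welch test without adjustment kept each count within 1.5 times. After adjustment it called 0 with Wnt3a, 0 with both against Wnt3a and 0 for the interaction. Among all tested probes it then called 165, 11 and 65 in the same order. *Ch25h* kept its difference of 1.84 between Wnt3a and Rspo2 but not its call, and 0 of all tested probes were called in that comparison.

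With slide as a term 0 were called with Wnt3a, 0 with both against Wnt3a and 0 for the interaction, and the cause was not tested. Among all tested probes 146, 162 and 151 were called in the same order. Signs turned for the interaction of *Abca1* (0.090) and *Mylip* probe 2 (-0.32), for Rspo2 against BSA of *Mylip* probe 2 (0.072) and *Nr1h3* (-0.063), and for both against Wnt3a of *Mylip* probe 2 (-0.25). After centring of arrays on the median, the median difference from BSA of all tested probes was 0.18 with Rspo2, 0.33 with Wnt3a and 0.26 with both, beside 0.01, 0.00 and 0.04, and of all probes called this put 384 of 568 higher with Wnt3a and 531 of 1028 higher with both, beside 92 of 573 and 292 of 1155 (211 of 411 and 403 of 1054 with quantile normalization). It called 0 with Wnt3a and turned *Hsd3b7* with both (0.14) and between Wnt3a and Rspo2 (0.063), *Mylip* probe 1 with Wnt3a (0.081), *Mylip* probe 2 with Rspo2 (0.12) and in the interaction (-0.020), *Nr1h2* between Wnt3a and Rspo2 (0.10) and *Nr1h3* with Wnt3a (0.17). Quantile normalization called 1 with Wnt3a and turned *Hsd3b7* (-0.0033) and *Nr1h3* (0.30) with Wnt3a, *Mylip* probes 1 (-0.0066) and 2 (0.067) with Rspo2 and *Nr1h2* with both (-0.063). Taking the 75th percentile over always-detected probes called 0 for the interaction and turned *Hsd3b7* with Wnt3a (-0.074), *Mylip* probe 1 with Rspo2 (-0.095) and *Nr1h2* with both (-0.068). Without a limit on fold 1 was called with Rspo2, 4 with both against BSA, 2 with both against Wnt3a and 2 between Wnt3a and Rspo2. The shares of all tested probes with an adjusted p under 0.05 were 16.8%, 39.2%, 4.27% and 1.47% in the same order. Without a filter, and with the deposited table, 0 were called for the interaction. Among all tested probes the interaction calls were 189 of 41173 and 411 of 22751, and 504 with the 75th percentile over always-detected probes.

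Replicate numbers showed no sign of pairing the samples. Deviations of arrays with the same number correlated at -0.41 to 0.27, and those with different numbers at -0.40 to 0.42. With 3 arrays in a group these correlations cannot exclude a pairing. With a replicate block 0 were called for the interaction, beside 324 of all 22751 tested probes. The other counts of member probes called were as without it. Leaving out 1 array gave 1 to 3 called with Wnt3a (1 without BSA replicate 1) and 0 to 1 for the interaction (0 without any of BSA replicates 2 and 3, Rspo2 replicates 2 and 3, Wnt3a replicate 2 and Rspo2+Wnt3a replicates 2 and 3). The difference of *Ch25h* between Wnt3a and Rspo2 ranged from 1.75 to 1.93. Rspo2 against BSA ranged from -0.37 to 0.0045 for *Abcg1*, -0.033 to 0.057 for *Mylip* probe 1 and -0.11 to 0.052 for *Mylip* probe 2, both against Wnt3a from -0.058 to 0.44 and the interaction from -0.010 to 0.48 for *Mylip* probe 2, and both against BSA from -0.0085 to 0.085 for *Nr1h2*.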
